A study of Mus musculus with 10 samples.

Results

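The enzymes that write and erase DNA methylation are themselves encoded by genes that can carry the mark, and the methylation signal at 6 of these genes was read here in mouse brain after 3 diets. No region and no probe of these genes passed the test between diets after adjustment over the whole array. The largest difference among the tested regions, a second Dnmt3a region that was higher by 0.50 on the log2 scale on the n-3 enriched than on the standard diet, did not pass. The genes were Dnmt1, Dnmt3a, Dnmt3b, Tet1, Tet2 and Tet3. Their members are the array probes that lie wholly within a fixed window of the mouse genome build mm9 for each gene. The windows were chr9:20705000-20765000 for Dnmt1, chr12:3800000-3920000 for Dnmt3a, chr2:153468000-153520000 for Dnmt3b, chr10:62260000-62350000 for Tet1, chr3:133120000-133215000 for Tet2 and chr6:83305000-83418000 for Tet3. They held 49 of the 88737 probes of the array: 6 for Dnmt1, 8 for Dnmt3a, 3 for Dnmt3b, 5 for Tet1, 7 for Tet2 and 20 for Tet3. Probes whose starts lie no more than 500 bp apart were joined into regions, which gave 11 regions for the 6 genes. The 10 regions with at least 3 probes entered the tests, out of 13835 such regions on the array, and 1 Tet3 region of 2 probes did not. Gene names for single probes are not in the files and no mm9 annotation was used here, so a gene's name stands for its window, and exon, intron and promoter are not assigned.

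Dnmt1 is the maintenance methyltransferase, which copies the methyl mark of CpG sites onto the new strand after replication. Dnmt3a and Dnmt3b are the de novo methyltransferases, and Dnmt3a is the one known for its role in postnatal neurons. Tet1, Tet2 and Tet3 are dioxygenases that oxidise 5-methylcytosine to 5-hydroxymethylcytosine and further products, the first steps of its removal, and hydroxymethylcytosine is abundant in brain. Enzyme levels were not measured on these arrays, and a methylation signal at a gene is no measure of its RNA or protein.

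The assay pulls down methylated DNA, and its signal depends in part on the number of CpG sites in a stretch. To show how unlike the genes are in this respect, the 250 bases before 5 of their annotated starts are printed below from 5′ to 3′ on the gene's own strand, as listed by RefSeq for build GRCm38.p6, with every CpG in capitals. These coordinates are in another build than the probes, none were converted, and whether a probe lies in these stretches was not determined.
Dnmt3a start 2: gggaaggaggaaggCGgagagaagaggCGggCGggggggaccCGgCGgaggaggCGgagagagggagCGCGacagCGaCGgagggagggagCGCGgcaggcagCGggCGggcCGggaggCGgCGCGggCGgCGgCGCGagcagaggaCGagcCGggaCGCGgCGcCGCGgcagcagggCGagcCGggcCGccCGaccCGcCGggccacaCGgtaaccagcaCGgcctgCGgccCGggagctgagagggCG
Dnmt3a start 3: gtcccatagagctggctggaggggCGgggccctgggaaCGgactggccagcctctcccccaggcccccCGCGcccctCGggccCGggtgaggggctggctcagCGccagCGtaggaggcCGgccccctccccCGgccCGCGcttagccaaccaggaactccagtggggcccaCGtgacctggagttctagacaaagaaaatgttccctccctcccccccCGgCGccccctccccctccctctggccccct
Dnmt3b start: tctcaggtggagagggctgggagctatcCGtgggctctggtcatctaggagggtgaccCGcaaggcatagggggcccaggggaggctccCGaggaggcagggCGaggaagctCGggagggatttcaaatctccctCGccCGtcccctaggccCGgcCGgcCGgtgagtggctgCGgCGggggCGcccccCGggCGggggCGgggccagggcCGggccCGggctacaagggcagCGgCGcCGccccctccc
Tet2 start: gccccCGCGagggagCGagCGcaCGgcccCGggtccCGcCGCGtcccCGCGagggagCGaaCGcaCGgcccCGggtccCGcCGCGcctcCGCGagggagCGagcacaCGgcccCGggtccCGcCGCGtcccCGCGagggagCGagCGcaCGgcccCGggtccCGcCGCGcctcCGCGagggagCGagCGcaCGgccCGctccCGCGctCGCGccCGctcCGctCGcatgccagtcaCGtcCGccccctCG
Tet3 start: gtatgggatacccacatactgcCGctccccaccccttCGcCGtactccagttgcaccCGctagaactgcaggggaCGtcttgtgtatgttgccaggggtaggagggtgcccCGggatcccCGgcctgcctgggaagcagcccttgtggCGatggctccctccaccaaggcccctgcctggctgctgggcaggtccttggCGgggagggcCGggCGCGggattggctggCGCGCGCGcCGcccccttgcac

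The CpG count is that of the letters CG, which read the same on both strands, and is set against all 32851 RefSeq windows of 250 bases, whose median was 6. RefSeq lists 3 Dnmt3a starts, of which start 1 (chr12:3806730-3806979 on the plus strand), not printed because it overlaps the next, held 38 CpG sites (at least as many in 1.88% of windows). Dnmt3a start 2 (chr12:3806910-3807159 on the plus strand) held 40 CpG sites (at least as many in 1.31% of windows). Dnmt3a start 3 (chr12:3891494-3891743 on the plus strand) held 15 CpG sites (at least as many in 27.3% of windows). The Dnmt3b start (chr2:153649199-153649448 on the plus strand) held 21 CpG sites (at least as many in 16.3% of windows). The Tet2 start (chr3:133544391-133544640 on the minus strand) was the richest of the 6 genes, with 51 CpG sites (at least as many in 0.067% of windows). The Tet3 start (chr6:83441679-83441928 on the minus strand) held 17 CpG sites (at least as many in 23.5% of windows). The Tet1 start, not printed, held 15 CpG sites (at least as many in 27.3% of windows), and the 3 Dnmt1 starts held 26, 7 and 2. All 6 genes therefore have at least 1 start with more CpG sites than the median window.

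DNA came from left hemibrains of male C57BL/6j mice, an inbred strain, with no transgene or other treatment named in the labels. Mice were placed at 3 weeks of age on a diet that they ate for 24 weeks: an n-3 enriched diet with an n-3 to n-6 fatty acid ratio of 7:1 (ERD, 4 arrays), a balanced diet at 1:1 (BLD, 3 arrays) or the standard laboratory diet at 1:6 (STD, 3 arrays). The diets were made to hold equal calories, per the series' design text, and STD serves as the control. Methylated DNA was immunoprecipitated and hybridised (MeDIP-chip) in Cy5 against input DNA in Cy3 on every array, without a dye swap. The hemibrain holds neurons, glia and other cells, and a change in cell makeup and a change of methylation within cells cannot be told apart in bulk DNA. The tissue label itself could not be checked, because a methylation array carries no marker RNA.

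Every value is a log2 ratio of immunoprecipitated over input signal, set to 0 at the median probe of its array. Since the ratio also depends on CpG content, it was compared between diets at the same region, not between regions. Values with normexp, a model-based background correction used as an alternative, are given beside differences whose sign it turned, where its value was kept. The arrays differed in spread: the interquartile range of the log2 ratio was 0.71 ± 0.077 in ERD, 0.61 ± 0.20 in BLD and 0.47 ± 0.082 in STD (mean ± SD; n = 4, 3 and 3 arrays here and in all such means below). From 84.1% to 94.7% of probes were well above background in both channels on the ERD arrays, 88.0% to 90.5% on BLD and 76.4% to 89.2% on STD. Of the 49 probes, 35 were well above background on all 10 arrays, and none was saturated or an outlier on any array. The ERD arrays lie on 2 slides of their own, so slide and diet cannot be told apart there, and BLD and STD share only 1 slide, with 1 array of each. The labels do not say that each array is a separate animal, so the p-values speak only for the spread among the arrays, which may be technical.

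**Figure D1:**
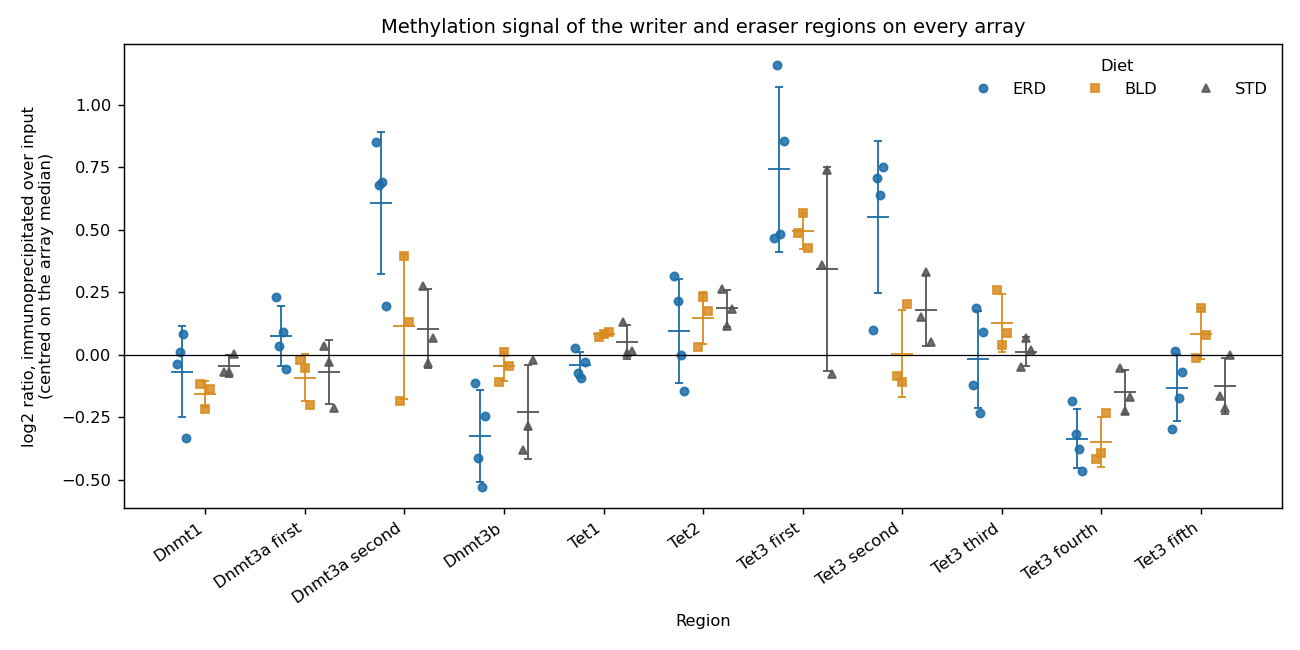
Log2 ratio of immunoprecipitated over input DNA (vertical axis, 0 is the array median) in the 11 regions of the 6 genes. Each point is 1 array, coloured by diet, with the mean and SD of each diet as bars. ERD stands above the other diets by mean in the second Dnmt3a region, with 1 ERD array among them, and the fourth Tet3 region lies below 0 on all 10 arrays.

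The maintenance enzyme's gene, Dnmt1, was covered by 1 region of 6 probes (chr9:20756899-20757449, mm9, 551 bp), and its signal was close to the array median on every diet. Its log2 ratio was -0.037, 0.012, 0.084 and -0.33 in ERD, -0.12, -0.22 and -0.14 in BLD, and -0.070, -0.068 and 0.0054 in STD. The BLD arrays were the lowest as a group and lay below all 3 STD arrays, while ERD spanned both other diets with 1 low array. The means were -0.068 ± 0.18 in ERD, -0.16 ± 0.053 in BLD and -0.044 ± 0.043 in STD (mean ± SD). ERD minus STD was -0.024 ± 0.11 (SE; limma adjusted p = 0.928). BLD minus STD was -0.11 ± 0.11 (SE; limma adjusted p = 0.69), and -0.067 between the arrays that share a slide; both differences turned positive with normexp background correction, at 0.30 and 0.099. ERD minus BLD was 0.089 ± 0.11 (SE; limma adjusted p = 0.811). Within the region, probe 1 was above the array median on all 10 arrays, from 0.093 to 0.67, and probe 6 ran from -0.60 to 0.014.

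Dnmt3a, the de novo enzyme, had 2 regions of 4 probes each, and ERD had the highest mean in both. The first region (chr12:3808024-3808421, 398 bp) had log2 ratios of 0.23, 0.037, 0.091 and -0.055 in ERD, -0.021, -0.051 and -0.20 in BLD, and 0.037, -0.029 and -0.21 in STD, and the 3 diets overlapped. Its means were 0.076 ± 0.12 in ERD, -0.090 ± 0.096 in BLD and -0.068 ± 0.13 in STD (mean ± SD). The difference ERD minus STD was 0.14 ± 0.10 (SE; limma adjusted p = 0.506), and ERD minus BLD was 0.17 ± 0.10 (SE; limma adjusted p = 0.594). The smaller BLD minus STD was -0.023 ± 0.11 (SE; limma adjusted p = 0.949); it was -0.24 on the shared slide and had the other sign with normexp (0.16) and with loess (0.066). Probe 1 of this region was below the array median on all 10 arrays, with means of -0.63 in ERD, -0.52 in BLD and -1.05 in STD.

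The second Dnmt3a region (chr12:3891187-3891698, 512 bp) had log2 ratios of 0.85, 0.68, 0.69 and 0.20 in ERD, -0.18, 0.39 and 0.13 in BLD, and 0.28, -0.033 and 0.069 in STD. ERD replicates 1, 2 and 3 were higher than all 6 other arrays, and ERD replicate 4 lay among them. The means were 0.61 ± 0.28 in ERD, 0.11 ± 0.29 in BLD and 0.10 ± 0.16 in STD (mean ± SD). ERD was higher than STD by 0.50 ± 0.17 (SE; limma adjusted p = 0.212) and than BLD by 0.49 ± 0.17 (SE; limma adjusted p = 0.452), so neither difference passed. BLD and STD lay together, with BLD minus STD at 0.0093 ± 0.18 (SE; limma adjusted p = 0.99), and at -0.15 on the shared slide. The spread was wide: the within-diet SD of 0.26 was larger than in 85.5% of all regions. The share of its spots well above background was 87.5% in ERD, 83.3% in BLD and 75% in STD, and the part of this in the difference was not tested. With normexp, ERD minus STD was 0.079 and ERD minus BLD 0.18, and with arrays scaled to one spread ERD minus STD was 0.37.

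The probes of the second Dnmt3a region did not all follow the region. At probe 3 the log2 ratio was 1.17, 0.44, 0.85 and 0.082 in ERD, -0.56, -0.43 and -0.088 in BLD, and 0.67, -0.19 and -0.34 in STD, so all ERD arrays were above all BLD arrays. The difference ERD minus BLD was 1.00 there (limma adjusted p = 0.379), the lowest p of the 49 probes in that comparison. At probe 4 it was 0.45, 0.72, -0.024 and -0.025 in ERD, 0.67, 0.65 and 0.38 in BLD, and -0.29, -0.093 and -0.26 in STD, and BLD, not ERD, had the highest mean. The difference BLD minus STD was 0.78 at probe 4 (limma adjusted p = 0.464), again the lowest p of the 49. Probe 4 was well above background on 8 arrays, and probe 3 on all 10. Probes 1 and 2, well above background on 8 and 7 arrays, had ERD means of 0.65 and 0.85 against 0.27 and 0.31 in STD.

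Dnmt3b, the other de novo enzyme, had 1 region of 3 probes (chr2:153475348-153475733, 386 bp), which was below the array median on 9 of 10 arrays. Its log2 ratio was -0.11, -0.41, -0.53 and -0.25 in ERD, -0.11, 0.013 and -0.044 in BLD, and -0.38, -0.29 and -0.019 in STD. All ERD arrays lay below all BLD arrays by a narrow margin, and STD spanned most of the range. The means were -0.32 ± 0.18 in ERD, -0.046 ± 0.060 in BLD and -0.23 ± 0.19 in STD (mean ± SD). For ERD minus BLD the value was -0.28 ± 0.12 (SE; limma adjusted p = 0.471); it was 0.020 with normexp. For ERD minus STD the value was -0.097 ± 0.12 (SE; limma adjusted p = 0.71), with the other sign under normexp (0.13). For BLD minus STD the value was 0.18 ± 0.13 (SE; limma adjusted p = 0.571), and 0.33 on the shared slide, but -0.096 with the median of the probes. Probe 1 was below the array median on all 10 arrays, from -1.27 to -0.41, while probe 3 ran from -0.67 to 0.75.

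Among the erasers, Tet1 had the steadiest region mean. Its region (chr10:62349438-62350078, 641 bp) holds 7 probes, of which 5 lie wholly in the window and 2 cross or lie beyond its end. The log2 ratio was 0.027, -0.072, -0.091 and -0.027 in ERD, 0.071, 0.085 and 0.091 in BLD, and 0.13, 0.0056 and 0.017 in STD. All ERD arrays lay below all BLD arrays, and ERD and STD overlapped. The means were -0.041 ± 0.053 in ERD, 0.082 ± 0.0098 in BLD and 0.051 ± 0.068 in STD (mean ± SD). The within-diet SD of 0.051 was larger than in 0.593% of all regions. This holds for the mean of the 7 probes. Over the 10 arrays the SD was 0.072 for the region and from 0.11 (probe 1) to 0.42 (probe 2) for its probes. By the fit, ERD minus BLD was -0.12 ± 0.082 (SE; limma adjusted p = 0.628), with the other sign under normexp (0.041) and with the median of the probes (0.027). By the fit, ERD minus STD was -0.092 ± 0.082 (SE; limma adjusted p = 0.599), with the other sign under the median of the probes (0.11). By the fit, BLD minus STD was 0.032 ± 0.088 (SE; limma adjusted p = 0.902), and -0.039 on the shared slide and -0.12 with normexp, both of the other sign.

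The edge of the Tet1 window mattered to the overlap of the diets. Over the 5 probes inside it, the mean log2 ratio was -0.068, -0.12, -0.28 and -0.17 in ERD, -0.036, -0.088 and 0.056 in BLD, and 0.11, 0.047 and -0.052 in STD. All 4 ERD arrays were then below all 3 STD arrays, which was not so over 7 probes, while ERD and BLD overlapped, so the separation of ERD from BLD held only with the 2 probes outside the window. ERD minus STD was -0.19 for these 5 (limma adjusted p = 0.326, where the alternatives of this difference ranged from 0.326 to 0.908). Only some probes of the region kept 1 sign. Probes 1 and 4 were above the array median on all 10 arrays, probe 1 from 0.21 to 0.53, and probe 2 was below it on all 10. Probes 5 and 6 each had 1 array of the other sign. Probe 3 was above the median on 4 arrays and below on 6, and probe 7 was above on 7 and below on 3. Probe 2 had log2 ratios of -1.30, -0.93, -1.32 and -0.45 in ERD, -0.34, -0.39 and -0.24 in BLD, and -0.86, -0.58 and -0.17 in STD, so that every ERD array was below every BLD array. ERD minus BLD at probe 2 was -0.68 (limma adjusted p = 0.38).

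Tet2, the next dioxygenase, had 1 region of 7 probes (chr3:133207147-133208200, 1054 bp), and its signal did not separate the diets. The log2 ratio was 0.32, 0.22, -0.0013 and -0.14 in ERD, 0.032, 0.23 and 0.17 in BLD, and 0.26, 0.11 and 0.18 in STD. ERD held both the highest and the lowest arrays, and the other diets lay between them. The means were 0.097 ± 0.21 in ERD, 0.15 ± 0.10 in BLD and 0.19 ± 0.074 in STD (mean ± SD). The difference ERD minus STD was -0.089 ± 0.12 (SE; limma adjusted p = 0.725), with the other sign under normexp (0.32). BLD minus STD was -0.040 ± 0.13 (SE; limma adjusted p = 0.916) and -0.087 on the shared slide, and ERD minus BLD was -0.050 ± 0.12 (SE; limma adjusted p = 0.92); both turned sign with normexp, to 0.083 and 0.24. Probe 7 was well above background on no array and read 1.73 and 1.84 on BLD replicates 1 and 2. Without it the region was 0.22, 0.093, 0.029 and -0.12 in ERD, -0.25, -0.035 and 0.19 in BLD, and 0.35, 0.13 and 0.19 in STD. BLD replicates 1 and 2 then lay below all 3 STD arrays, and BLD minus STD was -0.26.

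Tet3, the third of the dioxygenases, had the widest coverage, with 20 probes in 5 regions over the window. The first region by coordinate (chr6:83318037-83318515, 5 probes) was mostly above the array median. Its log2 ratio was 0.47, 1.16, 0.48 and 0.85 in ERD, 0.49, 0.57 and 0.43 in BLD, and 0.36, 0.74 and -0.074 in STD, above the array median on every array but STD replicate 3. The means were 0.74 ± 0.33 in ERD, 0.50 ± 0.070 in BLD and 0.34 ± 0.41 in STD (mean ± SD), and the within-diet SD of 0.31 exceeded that of 91.4% of all regions. For ERD minus STD the value was 0.40 ± 0.20 (SE; limma adjusted p = 0.348), -0.053 with normexp, 0.19 without STD replicate 3, 0.26 without ERD replicate 2 and 0.60 without STD replicate 2. The difference BLD minus STD was 0.15 ± 0.21 (SE; limma adjusted p = 0.777), 0.068 on the shared slide and -0.29 with normexp. ERD minus BLD was 0.25 ± 0.20 (SE; limma adjusted p = 0.697). In STD only 60% of its spots were well above background, and the part of this in the differences was not tested.

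The second Tet3 region (chr6:83354527-83354774) has 2 probes and entered only a fit over all 15522 regions of any size. Its log2 ratio was 0.10, 0.71, 0.64 and 0.75 in ERD, -0.085, -0.11 and 0.20 in BLD, and 0.15, 0.33 and 0.052 in STD. ERD replicates 2, 3 and 4 were higher than all 6 other arrays and ERD replicate 1 was not, where in the second Dnmt3a region replicate 4 was the one that lay low. The means were 0.55 ± 0.30 in ERD, 0.0041 ± 0.17 in BLD and 0.18 ± 0.14 in STD (mean ± SD). The difference ERD minus BLD was 0.55 ± 0.16 (SE; limma adjusted p = 0.423), ERD minus STD was 0.37 ± 0.16 (SE; limma adjusted p = 0.302), and BLD minus STD was -0.17 ± 0.17 (SE; limma adjusted p = 0.684). On the shared slide BLD minus STD was 0.051, against the sign of the fit. At its probe 2, BLD replicates 1 and 2 were the lowest of the 10 arrays; the ERD and BLD means were 0.34 and -0.44, and ERD minus BLD there had a limma adjusted p = 0.379.

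The third Tet3 region (chr6:83391357-83391798, 4 probes) had log2 ratios of -0.12, 0.19, -0.23 and 0.090 in ERD, 0.26, 0.039 and 0.086 in BLD, and -0.049, 0.066 and 0.020 in STD. All diets overlapped around the array median, and ERD minus STD was -0.030 ± 0.11 (SE; limma adjusted p = 0.911). For BLD minus STD the value was 0.12 ± 0.12 (SE; limma adjusted p = 0.706), 0.13 on the shared slide, and ERD minus BLD was -0.15 ± 0.11 (SE; limma adjusted p = 0.687). The fourth region (chr6:83405811-83406327, 5 probes) stood at -0.18, -0.32, -0.38 and -0.46 in ERD, -0.41, -0.39 and -0.23 in BLD, and -0.051, -0.23 and -0.17 in STD. It was the only one of the 11 regions below the array median on all 10 arrays; all 3 BLD arrays lay below all 3 STD arrays, and ERD overlapped both. Its means were -0.34 ± 0.12 in ERD, -0.35 ± 0.10 in BLD and -0.15 ± 0.089 in STD (mean ± SD). By the fit, ERD minus STD was -0.19 ± 0.098 (SE; limma adjusted p = 0.373), or 0.23 with normexp. By the fit, BLD minus STD was -0.20 ± 0.10 (SE; limma adjusted p = 0.484), -0.18 on the shared slide and 0.061 with normexp. The ERD and BLD means lay close, with ERD minus BLD at 0.012 ± 0.098 (SE; limma adjusted p = 0.981).

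Its probes again differed. Probe 5 was below the array median on all 10 arrays, from -1.18 to -0.52. Probe 1 had the largest ERD minus STD difference of the 5 by size, with log2 ratios of -0.31, -0.057, -0.71 and -0.50 in ERD, 0.17, 0.29 and 0.098 in BLD, and 0.022, 0.72 and 0.22 in STD. Every ERD array was negative there and every BLD and STD array positive. ERD minus STD was -0.71 (limma adjusted p = 0.183), the lowest p of the 49 probes in that comparison, at a probe well above background on 7 arrays. The fifth Tet3 region (chr6:83406994-83407370, 4 probes) had log2 ratios of -0.30, 0.016, -0.17 and -0.069 in ERD, -0.014, 0.19 and 0.079 in BLD, and -0.16, -0.21 and 0.00079 in STD. BLD was the highest diet by mean, and the diets overlapped. Means were -0.13 ± 0.13 in ERD, 0.084 ± 0.10 in BLD and -0.13 ± 0.11 in STD (mean ± SD). BLD minus STD was 0.21 ± 0.11 (SE; limma adjusted p = 0.484), 0.24 on the shared slide, 0.041 with normexp and -0.017 with a joining gap of 1000 bp, which merges this region with the fourth. For ERD minus BLD the value was -0.22 ± 0.10 (SE; limma adjusted p = 0.507).

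**Figure D2:**
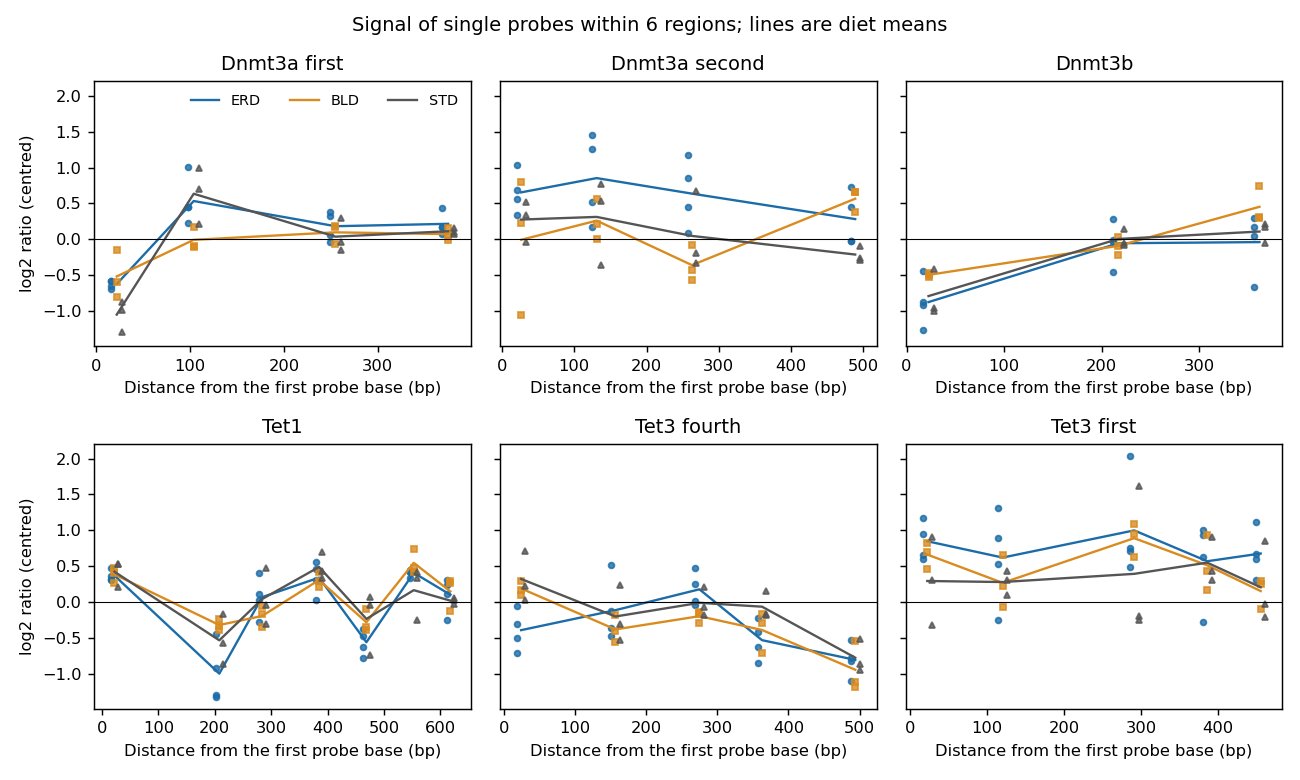
Log2 ratio of each probe (vertical axis, 0 is the array median) against its distance in bp from the first probe base of its region, in 6 of the regions; points are arrays and lines are diet means. Probe 1 of the fourth Tet3 region is negative on all 4 ERD arrays and positive on the other 6, and the last probe of the second Dnmt3a region is highest in BLD by mean.

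Counted over all arrays, 0 of the 10 tested regions were above the array median on all 10 arrays, where 8.27% of the array's regions were, and 1 was below it on all 10, where 16% were. Of the 49 probes, 6 were above on all 10 arrays (7.19% of all probes) and 4 were below (10.2%). The probes above lay in Dnmt1 (1), Tet1 (2), Tet2 (2) and the third Tet3 region (1). The probes below were those named above in the first Dnmt3a region, Dnmt3b, Tet1 and the fourth Tet3 region.

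The comparison of the enriched with the standard diet asks whether a high n-3 share moved methylation at these genes. Limma called 0 of the 10 regions and 0 of the 49 probes at an adjusted p under 0.05, as it called 0% of all regions and 0% of all probes. At an unadjusted p under 0.05, 1 region was higher in ERD, the second Dnmt3a region, against 7.68% of all regions, and 0 were lower, against 8.02%. Both directions together, 15.7% of all regions were under that p. The count of regions was 0 with normexp (8.72% of all regions), 2 with loess (16.3%) and 2 with the median of the probes (15.8%). Over regions of any number of probes it was 2 of 11 (15.4%). It was 3 without ERD replicate 1 (15.7%), and 2 without ERD replicate 3 (14.8%) or STD replicate 2 (14.7%). Of the probes, 5 had an unadjusted p under 0.05 (3 higher, 2 lower), against 15% of all probes. In 0 regions were all ERD arrays above all STD arrays (7.24% of all regions), and in 0 were they all below (9.01%). By sign, 3 regions were higher and 7 lower in ERD, with a median of -0.027, where 50.6% of all regions were higher with a median of 0.0033. Normexp turned the sign of Dnmt1, Dnmt3b, Tet2 and the first and the fourth Tet3 region. The third and the fifth Tet3 region were fitted with it too, but their separate values were not kept for this comparison. Over all regions the median with normexp was 0.057, and 64.5% were higher. Of all regions with an unadjusted p under 0.05, 48.9% were higher in ERD, 66.5% with normexp and 59.1% with scaled arrays.

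For the balanced against the standard diet, limma again called 0 of 10 regions and 0 of 49 probes (0% of all regions and 0% of all probes). At an unadjusted p under 0.05, 0 regions were higher in BLD, against 7.31% of all regions, and 0 lower, against 3.89%. Both directions together, 11.2% of all regions were under that p. The count was 1 with scaled arrays (13.5% of all regions) and with array weights (7.13%). It was also 1 without BLD replicate 3 (18.7%) or STD replicate 3 (7.58%). The largest differences lay in neighbours of opposite sign, 0.21 in the fifth and -0.20 in the fourth Tet3 region. Of the probes, 6 had an unadjusted p under 0.05 (3 higher, 3 lower), against 10.5% of all probes. All BLD arrays were above all STD arrays in 0 regions (11.1% of all regions) and below them in 2, Dnmt1 and the fourth Tet3 region (6.27%). By sign, 6 regions were higher and 4 lower, with a median of 0.020 against 0.030 over all regions, of which 56.7% were higher. Normexp turned the sign of Dnmt1, the first Dnmt3a region, Tet1, Tet2 and the first and the fourth Tet3 region. The second Dnmt3a and the third Tet3 region were fitted with it too, but their separate values were not kept for this comparison. Over all regions the median with normexp was -0.012, and 45.9% were higher. The split of all regions with an unadjusted p under 0.05 was 65.3% higher in BLD, 23.5% with normexp, 53.5% with loess and 51.7% with quantile normalization. With normexp 3.59% of all regions had such a p, against 11.2% without it.

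Between the enriched and the balanced diet, limma called 0 of 10 regions and 0 of 49 probes (0% of all regions and 0% of all probes). At an unadjusted p under 0.05, the second Dnmt3a region was higher in ERD (1 of 10, against 3.48% of all regions) and Dnmt3b was lower (1 of 10, against 6.71%). Both directions together, the count was 2, where 10.2% of all regions were under that p. It fell to 0 with normexp (0.484% of all regions) and with the median of the probes (9.10%). It was 1 with loess (8.38%), quantile normalization (7.94%) or scaled arrays (6.43%). Leaving out ERD replicate 3 gave 1 (7.54%), as did leaving out BLD replicate 1 (6.52%), 2 (6.74%) or 3 (11.8%). With array weights it was 3 (12.1%), and over regions of any number of probes 3 of 11 (10.2%). With only probes well above background on every array it was 1 of 7 (10.8%). Of the probes, 6 were under that unadjusted p (3 higher, 3 lower), against 11.7% of all probes. All ERD arrays were above all BLD arrays in 0 regions (3.32% of all regions) and below them in 2, Dnmt3b and Tet1 (6.79%), of which Tet1 is lost over the 5 probes of its window. By sign, 5 regions were higher and 5 lower, with a median of -0.019 against -0.026 over all regions, of which 43.6% were higher. Of all regions with an unadjusted p under 0.05, 34.1% were higher in ERD, 52.1% with loess, 55.2% with quantile normalization and 100% with normexp. The last share rests on the 0.484% of all regions that had such a p with normexp, against 10.2% without it. The comparisons share arrays, so the 2 calls at the second Dnmt3a region are not separate evidence.

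**Figure D3:**
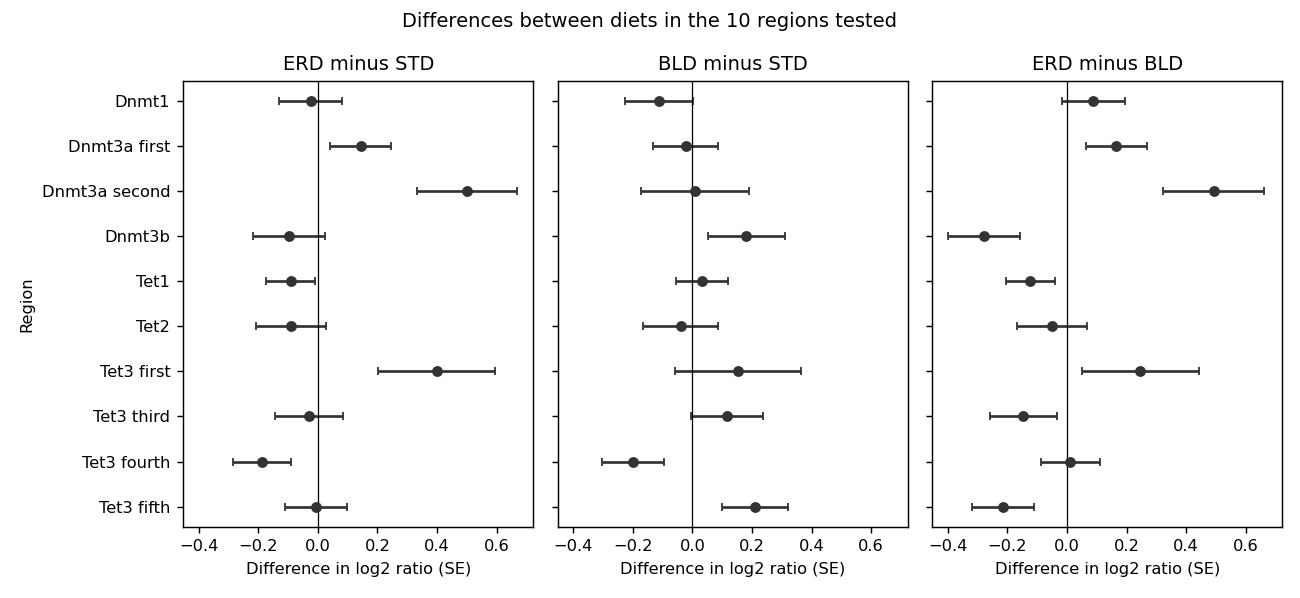
Difference in log2 ratio (horizontal axis) between pairs of diets in the 10 tested regions, with bars of 1 SE from limma. The second Dnmt3a region is the farthest from 0 in both comparisons with ERD, at 0.50 and 0.49, and no region passed the adjusted threshold in any of the 3 panels.

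A trend over the log2 of the n-3 to n-6 ratio asks for a change in step with the diet's composition. Its slope at the second Dnmt3a region was 0.098 ± 0.033 (SE; limma adjusted p = 0.217) per doubling of the ratio, or 0.017 with normexp, and at the fourth Tet3 region -0.032 ± 0.019 (SE; limma adjusted p = 0.429), or 0.043 with normexp. At an unadjusted p under 0.05, 1 of 10 regions had a positive slope (7.09% of all regions) and 0 a negative one (7.94%), and 0 passed after adjustment (0.0434% of all regions, 6 in number). The unadjusted count was 0 with normexp, and 3 with loess, the median of the probes or without ERD replicate 1. It was 2 without ERD replicate 3 or STD replicate 2 and with the 5-probe Tet1 region. For the trend, the share of all regions in those runs was not computed. Of the 49 probes, 4 had an unadjusted p under 0.05 (14.6% of all probes) and 0 passed after adjustment (0%). The means of the second Dnmt3a region do not form a series, since BLD and STD lay together and ERD apart.

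**Figure D4:**
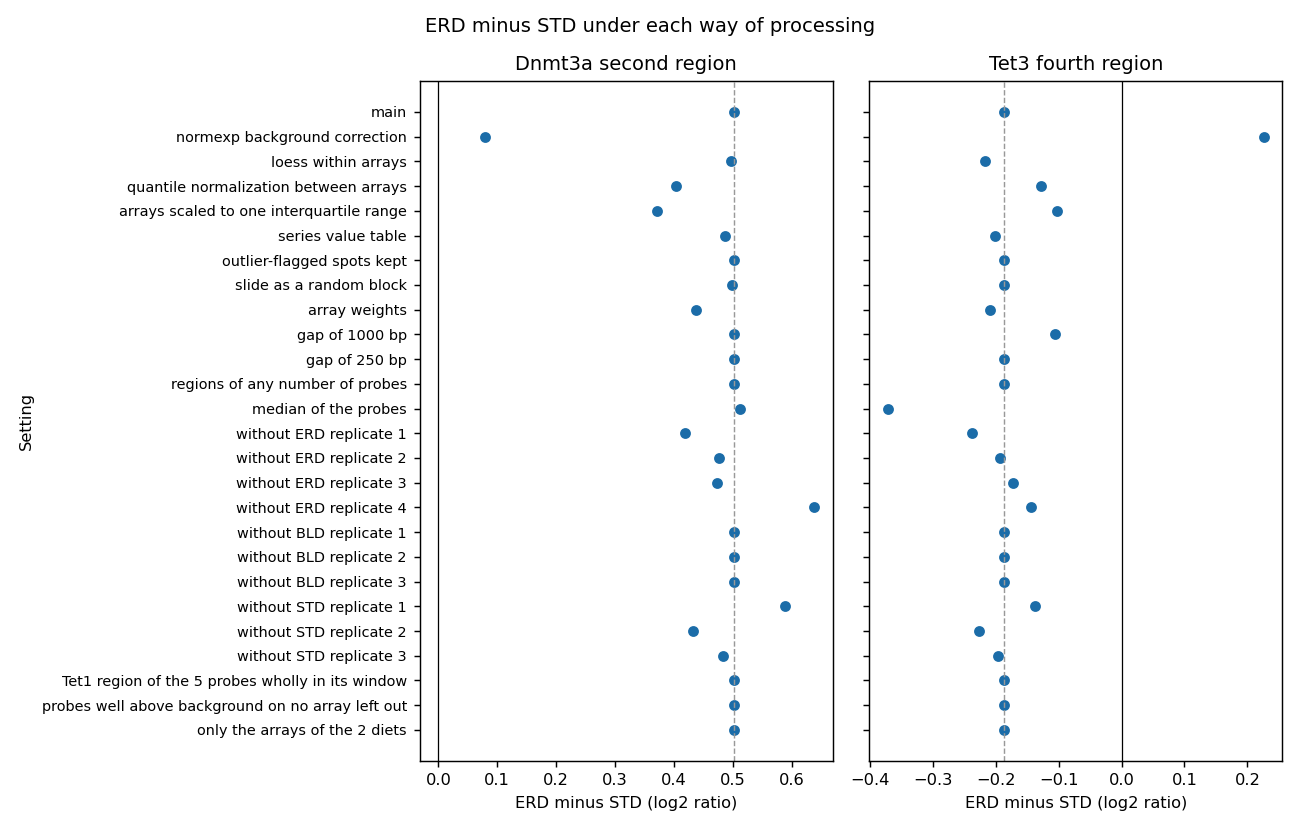
ERD minus STD in log2 ratio (horizontal axis) in the second Dnmt3a region and the fourth Tet3 region under each way of processing (rows); the dashed line is the value reported in the text. The Dnmt3a difference stays above 0, from 0.079 with normexp to 0.64 without ERD replicate 4, and the Tet3 difference is below 0 except with normexp, where it is 0.23.

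For each gene's region with the most probes (the first by coordinate where equal), the region whose signal was most alike over the 10 arrays was sought among the 13825 others by Pearson's r, as a description. It was chr1:106665010-106665547 (r = 0.856) for Dnmt1, chr11:75779824-75780533 (r = 0.931) for the first Dnmt3a region, chr6:88468396-88469210 (r = 0.921) for Dnmt3b, chr7:52621989-52623200 (r = 0.947) for Tet1, chr14:30535295-30536397 (r = 0.944) for Tet2 and chr11:58775271-58775827 (r = 0.979) for the first Tet3 region, all in mm9. Each is the highest of many values over the same 10 arrays, which share slides and spread, and these regions carry no gene name in the files.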

How the data were processed

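The authors immunoprecipitated methylated DNA and hybridised it in Cy5 against input DNA in Cy3, per the labels. The deposited scanner files hold processed signals (intensity) of both channels, background-subtracted and dye-normalized by Agilent Feature Extraction 10.7.3.1 for build mm9, per the file headers; the submitters' processing notes list version 9.0. The authors' deposited series table of log10 ratios differed from the scanner files by at most 0.00498 and served as an alternative. From the intensity values, log2(Cy5/Cy3) was computed without outlier spots, centred on the array median of 88737 non-control probes and averaged over regions (probe starts at most 500 bp apart, at least 3 probes). Differences between diets and a trend were fitted over all 10 arrays with limma 3.58.1 (R 4.3.3), with Benjamini-Hochberg adjustment over all regions or probes at 0.05, and the code was tested on simulated data. The number of arrays limits the precision. Regions were named as the one with the lowest limma p each way in each comparison and the trend, and the region with the most probes of each gene. The genes, lists and tests were chosen with earlier results of these data known. The list of related genes was not analysed, since the files pair no probe with a gene, and no protein sequences were used here. Replicates were numbered in accession order. Alternatives were other background corrections, normalizations, scalings, filters, blocks, region definitions and leaving out each array.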

Additional observations from a re-analysis of the deposited data

How the results depend on the processing

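In every alternative that was tested, 0 regions of the 6 genes passed the adjusted threshold in the diet comparisons and the trend it covered. Probes were fitted in 18 alternatives, and 0 passed there. Those 18 did not include the slide as a block, other joining gaps or region sizes, or the median of the probes. No paired analysis was possible because the titles carry no replicate numbers shared between diets. Slide and diet cannot be told apart for ERD. Taking the slide as a random block, ERD minus STD in the second Dnmt3a region was 0.50 (limma adjusted p = 0.252, and 0.191 to 0.768 over its alternatives). That region could not be fitted with probes well above background on every array, which left too few of its probes. The alternatives for the edge of the Tet1 window and for probes well above background on no array were chosen after seeing the data. Regions above the array median on all arrays numbered 1 with normexp and with loess, and 0 to 1 when 1 array was left out; 1 came without STD replicate 3. Regions below it numbered 0 with normexp and with the median of the probes, 2 with loess, and 1 to 2 when 1 array was left out; 2 came without BLD replicate 2. The cause of the changes below was not tested.
Among the differences whose values under the alternatives were kept, these changed sign. With normexp, BLD minus STD was 0.099 for Dnmt1, 0.16 for the first Dnmt3a region, -0.12 for Tet1, 0.083 for Tet2, -0.29 for the first Tet3 region and 0.061 for the fourth Tet3 region, and ERD minus BLD was 0.020 for Dnmt3b, 0.041 for Tet1 and 0.24 for Tet2, and ERD minus STD was 0.30 for Dnmt1, 0.13 for Dnmt3b, 0.32 for Tet2, -0.053 for the first Tet3 region and 0.23 for the fourth Tet3 region, and the trend was 0.043 for the fourth Tet3 region. With loess, BLD minus STD was 0.066 for the first Dnmt3a region. With only probes well above background on every array, BLD minus STD was 0.18 for the first Dnmt3a region and -0.023 for Tet1, and ERD minus BLD was 0.073 for Tet2. With the median of the probes, BLD minus STD was -0.096 for Dnmt3b, and ERD minus BLD was 0.027 for Tet1 and 0.026 for Tet2, and ERD minus STD was 0.11 for Tet1. With quantile normalization, BLD minus STD was -0.0099 for Tet1. Over the 5 probes in its window, BLD minus STD was -0.058 for Tet1. With the slide as a fixed block, which equals the shared slide, BLD minus STD was -0.039 for Tet1. Between the arrays of the shared slide, BLD minus STD was also -0.15 for the second Dnmt3a region and 0.051 for the second Tet3 region. With a joining gap of 250 bp, BLD minus STD was 0.0080 for Tet2. With a joining gap of 1000 bp, BLD minus STD was -0.017 for the fifth Tet3 region. Without probes well above background on no array, ERD minus BLD was 0.088 for Tet2. When 1 array was left out, BLD minus STD in the first Dnmt3a region ran from -0.095 to 0.032 (turned without BLD replicate 3 and STD replicate 1). BLD minus STD in Tet2 ran from -0.083 to 0.018 (turned without BLD replicate 1). BLD minus STD in the first Tet3 region ran from -0.055 to 0.35 (turned without STD replicate 3). ERD minus BLD in Tet2 ran from -0.12 to 0.030 (turned without ERD replicate 4). ERD minus STD in Dnmt1 ran from -0.074 to 0.064 (turned without ERD replicate 4 and STD replicate 3). ERD minus STD in Dnmt3b ran from -0.17 to 0.0075 (turned without STD replicate 3).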
